A study of Mus musculus with 8 samples.

Results

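The genes described here are 10 hypoxia response genes that lie outside glycolysis: Adm, Vegfa, Egln1, Egln3, Pdk1, Bnip3, Higd1a, Ndrg1, Ddit4 and Ankrd37. They were chosen by name, with earlier results of these data known. Every probe set that the array's annotation gives to 1 of these symbols was taken. That yielded 23 probe sets, 1 to 5 per gene, out of 34945 probe sets for 18193 genes on the array. RNA was measured in mouse embryonic stem cells (mESCs) and in pancreatic islet-like endocrine cells (PILECs) obtained from those mESCs by differentiation in vitro. The wild-type line was TC-1, the menin-null line was 3.2N, in which Men1 was inactivated, and all samples had the 129S6/SvEvTac background. The PILECs of each genotype passed through embryoid bodies, a serum-free selection, an expansion with a fibroblast growth factor and a last stage with nicotinamide. There were 8 arrays in 4 groups, each group being 2 independent cultures. Since each genotype was 1 cell line, genotype and line cannot be told apart.

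When oxygen is scarce, the prolyl hydroxylases of the EGLN family no longer mark the alpha subunits of hypoxia-inducible factor (HIF) for destruction by the VHL ubiquitin ligase. The stabilised subunit pairs with ARNT and binds a short core motif, A or G followed by CGTG, near its target genes. The targets outside glycolysis include secreted factors that act on blood vessels (Adm, Vegfa), the oxygen sensors themselves (Egln1, Egln3), proteins that act at mitochondria (Pdk1, Bnip3, Higd1a) and genes of growth control and stress (Ndrg1, Ddit4, Ankrd37). All of them have inputs other than oxygen, and neither oxygen nor HIF protein was measured on these arrays.

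Values are log2 signals as deposited, on which a difference of 1 is a 2-fold change. A difference is said to rise, fall or be called where limma, fitted across all 34945 probe sets and all 8 arrays, gave an adjusted p under 0.05. A gene is counted by its brightest probe set, the 1 with the highest mean over all arrays. By its brightest probe set Men1 itself was 4.42-fold lower in menin-null mESCs (limma adjusted p = 4.9e-05) and 4.01-fold lower in menin-null PILECs (adjusted p = 7.46e-05). Arrays of 1 group correlated at 0.993 to 0.998 across probe sets, and menin-null mESC array 2 was about as near to array 1 of the wild-type mESCs (0.994) as to the other menin-null array (0.993). All 11 mESC markers were called lower in PILECs of each genotype. Of 17 islet endocrine markers 8 were called higher in wild-type PILECs and 10 in menin-null PILECs, while 3 and 1 were called lower. Mean levels, wild type first, were 10.75 and 11.29 for the granule gene Chgb, 9.06 and 8.10 for the hormone gene Sst, 7.53 and 7.45 for the beta-cell factor Nkx6-1, 7.23 and 7.37 for Ins2, 5.38 and 5.36 for Pdx1, and 4.36 and 4.76 for Gcg. Neurod1 was among the 3 called lower in wild-type PILECs (-0.44, limma adjusted p = 0.0314). All 10 neuronal markers lay at 7 or above in PILECs, but 5 and 4 of them already did in mESCs, wild type first. In PILECs 9 and 8 of the 17 islet, 9 and 10 of 10 fibroblast and 8 and 7 of 10 muscle markers did. So did 5 and 5 of 7 glial, 8 and 11 of 14 endoderm, 4 and 4 of 8 endothelial and 3 and 1 of 5 adipocyte markers. The name PILECs is kept as labelled, and in bulk RNA fewer cells of a type and less RNA per cell cannot be told apart.

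The stretches that follow lie upstream of the start sites of 8 of the genes, and show where the HIF core motif occurs in them. Bnip3 and Ankrd37 have the most matches, Adm, Ddit4 and Egln1 the largest rises in wild-type cells by their brightest probe sets, Higd1a and Egln3 a call between genotypes, and Pdk1 the opposite direction. They are RefSeq sequences on GRCm38.p6, read 5' to 3' on the gene's strand, and capitals mark ACGTG or GCGTG on either strand, so CACGT and CACGC are the reverse forms. Bnip3 is chr7:138909522-138909638 (minus strand), Ankrd37 chr8:45999851-46000100 (minus), Adm chr7:110627552-110627622 (plus), Egln1 chr8:124949303-124949395 (minus), Ddit4 chr10:59951866-59951972 (minus), Higd1a chr9:121857843-121857881 (minus), Egln3 chr12:54204084-54204118 (minus) and Pdk1 chr2:71873131-71873165 (plus).
Bnip3: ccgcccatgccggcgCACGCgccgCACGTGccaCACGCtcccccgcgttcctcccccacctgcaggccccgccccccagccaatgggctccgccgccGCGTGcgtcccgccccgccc
Ankrd37: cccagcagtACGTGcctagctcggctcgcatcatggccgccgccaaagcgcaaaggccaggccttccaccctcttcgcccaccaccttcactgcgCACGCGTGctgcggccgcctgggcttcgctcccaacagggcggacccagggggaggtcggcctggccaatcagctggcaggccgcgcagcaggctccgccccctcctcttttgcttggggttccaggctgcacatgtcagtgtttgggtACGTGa
Adm: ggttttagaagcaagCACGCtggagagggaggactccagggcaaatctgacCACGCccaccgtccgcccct
Egln1: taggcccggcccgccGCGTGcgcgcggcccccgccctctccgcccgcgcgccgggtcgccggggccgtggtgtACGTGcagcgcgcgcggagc
Ddit4: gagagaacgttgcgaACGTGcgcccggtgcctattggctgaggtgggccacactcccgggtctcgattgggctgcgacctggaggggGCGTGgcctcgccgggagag
Higd1a: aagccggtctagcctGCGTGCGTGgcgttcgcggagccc
Egln3: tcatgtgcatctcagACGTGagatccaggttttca
Pdk1: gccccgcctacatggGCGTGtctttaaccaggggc

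Windows of 250 bases upstream of the start were at hand for 9 of the 10 genes (all but Ndrg1), 11 windows in all, and 9 of the 11 held at least 1 match. Among all 32851 mouse windows of that length 38.6% held at least 1, with ACGTG in 16.6% and GCGTG in 28.2%. Bnip3 had 5 matches, counting the palindrome CACGTG on each strand, and 1.01% of all windows had at least as many. Ankrd37 had 4, a number reached by 2.58% of windows. Adm, Egln1, Higd1a and Ddit4 had 2 each (16.7% of windows), and Egln3 had 1. Vegfa and Pdk1 have 2 start sites each: Vegfa had 0 matches in its first window and 2 in its second, and Pdk1 had 1 and 0. The GC content of the 11 windows ran from 38.4% in the second of Pdk1 and 50.8% in Egln3 to 86% in Egln1, against a median of 52.4% over all windows, and the part of GC content in the count of matches was not tested. A match describes the letters and says nothing of binding.

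Most of these genes were higher in PILECs than in mESCs. In wild-type cells 9 of the 10 rose from mESCs to PILECs, where 27.3% of all genes did, and 1, Pdk1, fell, where 34.9% did. Adm rose the most, by 2.96 (7.79-fold), followed by Ddit4 (2.64), Egln1 (2.51) and Vegfa (2.35). The median difference of the 10 genes was 1.75, against -0.08 over all genes. Probe set by probe set, 19 of 23 rose, 2 fell and 2 were not called, with 60.5% of all probe sets called in either direction. In menin-null cells 6 genes rose, against 28.4% of all genes, and Pdk1 fell, against 35.6%. Egln3, Higd1a and Ankrd37 were not called there. The median was 1.36, again against -0.07 over all genes, and 15 probe sets rose, 4 fell and 4 were not called, against 62.7% called over all. The number of genes called was the same, 10 and 7, whichever array was left out.

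**Figure D1:**
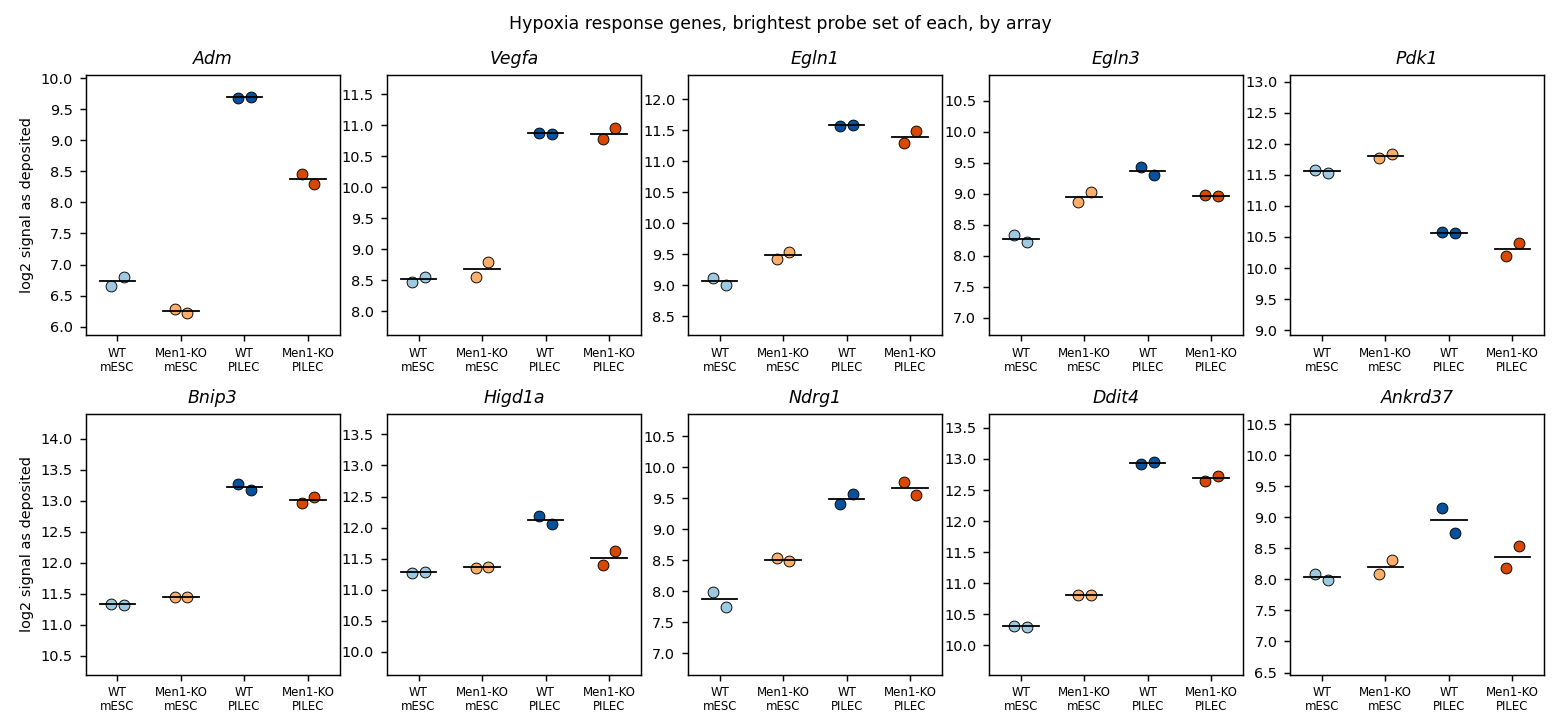
Log2 signal as deposited (vertical axis, every panel spanning the same number of log2 units) of the brightest probe set of each of the 10 genes in the 4 groups (horizontal axis). Each point is 1 array, and the bar is the mean of the 2 arrays. PILEC points lie above mESC points in every panel but Pdk1, where they lie below, and Egln3, Ankrd37 and Higd1a, where menin-null PILECs lie near or among the mESC values.

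**Figure D2:**
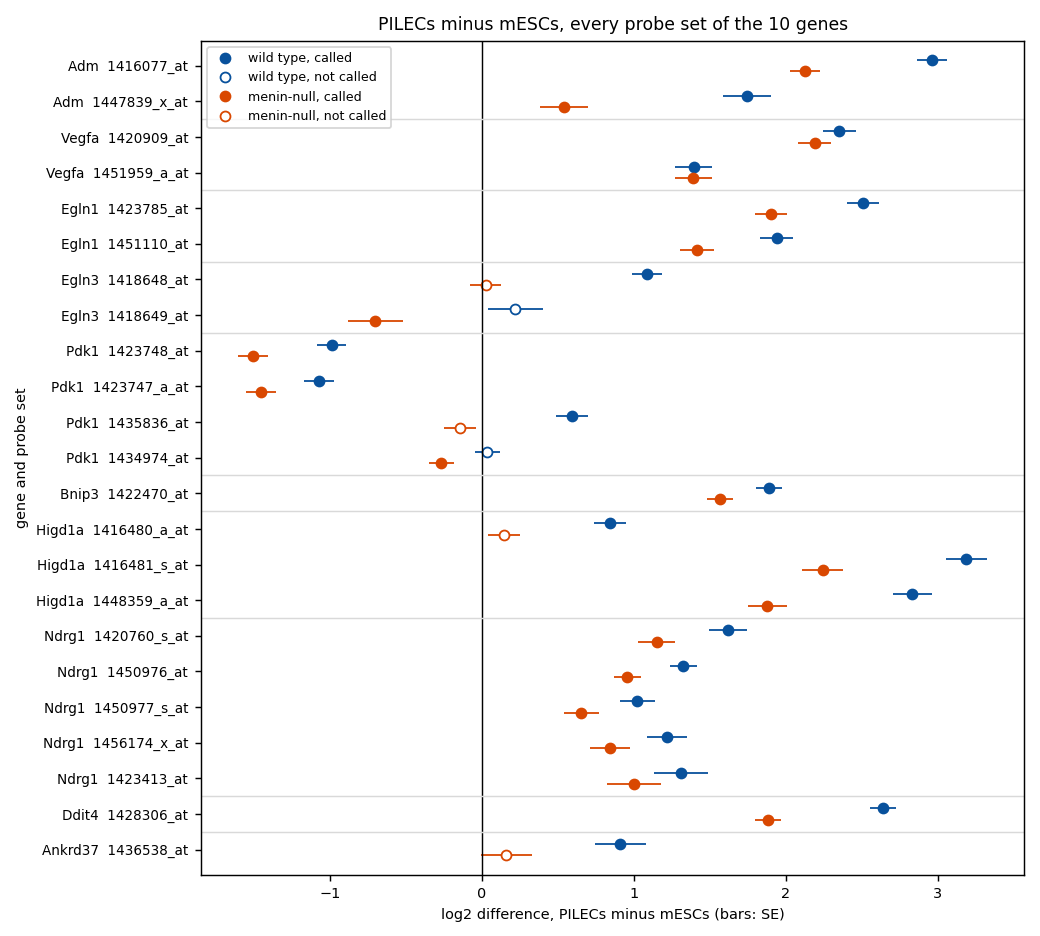
Log2 difference, PILECs minus mESCs (horizontal axis, bars give the SE), for each of the 23 probe sets (vertical axis), for each genotype. Filled points are called by limma and open points are not. In all 23 probe sets the wild-type point lies at or to the right of the menin-null point.

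Between genotypes, different genes were called in the 2 cell types. Those called in mESCs were higher in menin-null cells, and those called in PILECs were lower. In mESCs 3 of the 10 genes rose, Egln3 by 0.67, Ndrg1 by 0.64 and Ddit4 by 0.50, where 0.824% of all genes rose, and 0 fell, where 1.8% did. Limma gave 6 of the 10 an unadjusted p under 0.05, and the share of all genes under that cutoff was not counted, here or below. In PILECs 2 genes fell, Adm by 1.31 (2.49-fold) and Higd1a by 0.62 (1.54-fold), where 3.08% of all genes fell, and 0 rose, where 1.66% did, while 7 had an unadjusted p under 0.05. By probe sets, 4 of 23 rose in mESCs (2.2% of all were called) and 4 of 23 fell in PILECs (3.87%). Counted by sign alone, 9 of 10 genes were higher in menin-null mESCs, as were 51.5% of all genes, and 9 of 10 were lower in menin-null PILECs, as were 51.0%. For 8 of 10 both held, as for 23.3% of all genes. The exceptions were Adm, lower in menin-null mESCs too (-0.48), and Ndrg1, higher in menin-null PILECs too (0.17), neither difference called. The 2 comparisons share no array.

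**Figure D3:**
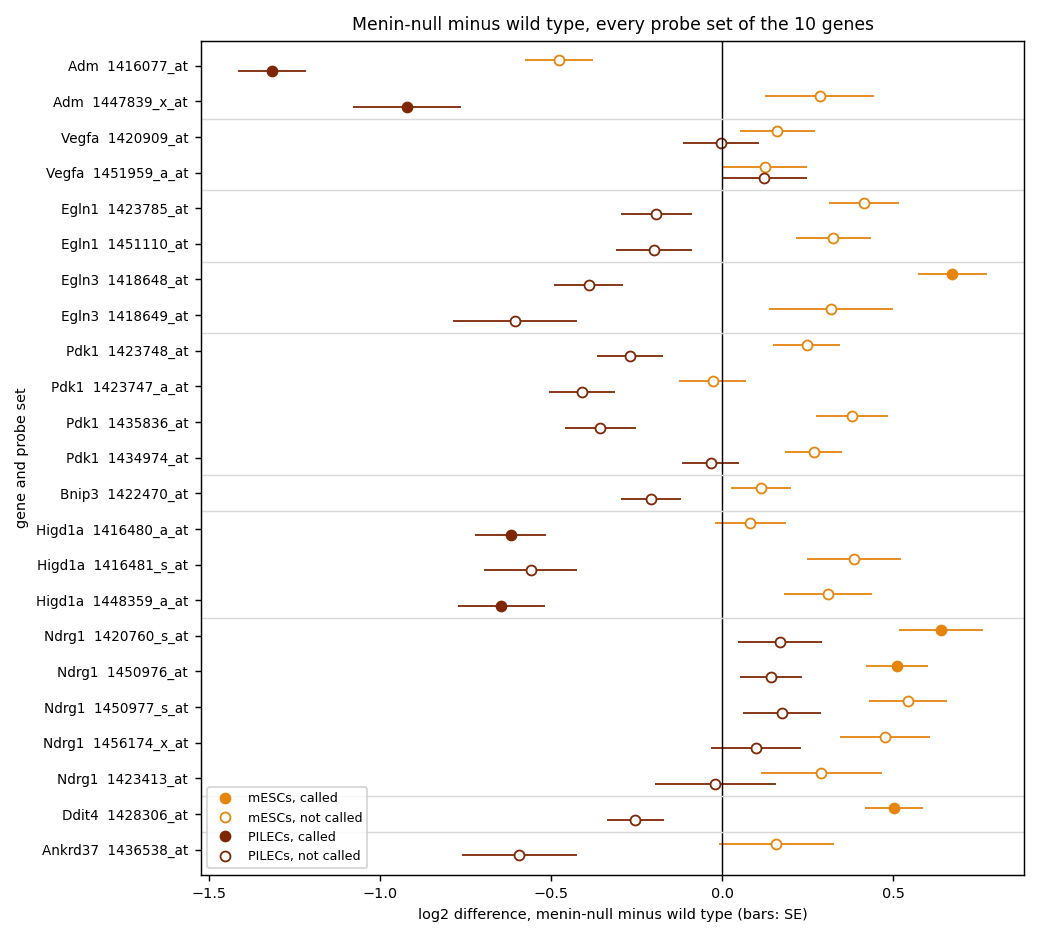
Log2 difference, menin-null minus wild type (horizontal axis, bars give the SE), for each of the 23 probe sets (vertical axis), in mESCs and in PILECs. Filled points are called by limma: 4 in mESCs, all to the right of 0, and 4 in PILECs, all to the left.

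The genotype calls depended on single arrays. Over all alternative settings the mESC difference ran from 0.59 to 0.76 for Egln3, 0.52 to 0.76 for Ndrg1 and 0.50 to 0.51 for Ddit4. Leaving out a PILEC array changes the spread in the fit and not that difference. Without any 1 of the 4 wild-type arrays limma called fewer probe sets in all, and the mESC calls among the 10 genes were lost. Only Egln3 remained without menin-null mESC array 1, and Egln3 and Ddit4 without either menin-null PILEC array. Without menin-null mESC array 2, the array that stood near the wild type, limma called more probe sets in all, and Egln3, Ndrg1 and Ddit4 were all called. In PILECs Adm was called whichever array was left out, with limma adjusted p between 0.000676 and 0.0210. Higd1a was not called without either wild-type mESC array (0.0534), nor when wild-type PILEC array 1 (0.165) or 2 (0.121) or menin-null PILEC array 1 (0.0988) was left out, and without either menin-null mESC array Egln3 was called lower as well (0.0477). The split of all calls in PILECs also moved with scaling: 35.0% of called genes were higher as deposited and 46.9% after quantile normalisation.

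Whether the effect of menin loss differed between PILECs and mESCs was tested directly, as the first effect minus the second. It was below 0 for all 10 genes, as for 53.4% of all genes, with a median of -0.65 against -0.02. Of the 10, 3 were called lower, Egln3 (-1.06), Adm (-0.84) and Ddit4 (-0.76). Over all genes 0.94% were called lower and 1.06% higher. An unadjusted limma p under 0.05 held for 9 of the 10, and the share of all genes under that cutoff was not counted. Among probe sets 5 of 23 were called, all lower, against 1.6% in either direction. This contrast equals the rise in menin-null cells minus the rise in wild-type cells, so a value below 0 is also a smaller rise, or for Pdk1 a larger fall, on differentiation. Over all alternative settings the contrast ran from -1.15 to -0.96 for Egln3, -0.92 to -0.75 for Adm and -0.798 to -0.715 for Ddit4. Without any 1 of the 4 wild-type or 2 menin-null PILEC arrays limma called fewer probe sets in all, and these 3 calls were lost. They were kept without either menin-null mESC array.

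Adm encodes adrenomedullin, a secreted peptide that widens vessels. Its brightest probe set, 1416077_at, read 6.66 and 6.80 in wild-type mESCs, 6.28 and 6.23 in menin-null mESCs, 9.69 and 9.69 in wild-type PILECs, and 8.46 and 8.29 in menin-null PILECs. The 4 groups did not overlap, with wild-type PILECs highest and menin-null mESCs lowest. The menin-null minus wild-type difference in PILECs was -1.31 ± 0.10 (SE) for Adm (limma adjusted p = 0.000745). In mESCs the difference of -0.48 ± 0.10 missed the threshold (limma adjusted p = 0.0533), and was called in 3 of 18 alternative settings. The rise on differentiation was 2.96 in wild-type cells (adjusted p = 8.71e-08) and 2.12 in menin-null cells (adjusted p = 3.55e-07), and the effect difference of -0.84 ± 0.14 was called (adjusted p = 0.0331). A second probe set, 1447839_x_at, whose suffix marks probes that may also match other transcripts, ran from 7.01 to 7.53 in mESCs, 8.62 to 8.94 in wild-type PILECs and 7.78 to 7.93 in menin-null PILECs. It too was called lower by limma in menin-null PILECs (-0.92, adjusted p = 0.0234) and in the effect difference (-1.21, adjusted p = 0.0448). Those calls were lost in 8 of 16 and 9 of 15 alternative settings. In mESCs the difference of this probe set had the other sign (0.28, limma adjusted p = 0.427).

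Vegfa encodes the main growth factor of endothelial cells. Probe set 1420909_at read 8.48 and 8.55 in wild-type mESCs, 8.56 and 8.79 in menin-null mESCs, 10.88 and 10.86 in wild-type PILECs, and 10.78 and 10.96 in menin-null PILECs. PILECs stood well above mESCs, and within PILECs the genotypes overlapped. The rise was 2.35 (5.11-fold) in wild-type and 2.19 (4.56-fold) in menin-null cells (limma adjusted p = 4.11e-07 and 5.5e-07). Menin-null and wild-type cells differed by 0.16 ± 0.11 in mESCs and -0.003 ± 0.11 in PILECs, neither called. The second probe set, 1451959_a_at, rose by 1.39 in each genotype.

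Adm and Vegfa act through receptors, 9 of which were listed, and of these 4 rose and 2 fell in wild-type PILECs relative to mESCs, and 6 rose and 1 fell in menin-null PILECs. Nrp1, a co-receptor for Vegfa, rose by 5.67 in wild type and 5.59 in the absence of menin, and Nrp2 by 2.30 and 2.63. Ramp2, which turns the calcitonin receptor-like receptor into an adrenomedullin receptor, rose by 2.07 and 1.67, and was the only 1 of the 9 called between genotypes in mESCs (0.73 higher in menin-null, limma adjusted p = 0.0226). In PILECs the receptor Flt1 was the only 1 called, 0.86 higher in menin-null (adjusted p = 0.0135), and also had an effect difference of 1.09 (adjusted p = 0.0326), the other sign from that of Adm.

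Egln1, also called PHD2, is the main oxygen sensor of most cells. Probe set 1423785_at read 9.13 and 9.01 in wild-type mESCs, 9.42 and 9.54 in menin-null mESCs, 11.58 and 11.58 in wild-type PILECs, and 11.29 and 11.49 in menin-null PILECs. No groups overlapped, yet neither genotype difference was called: 0.41 ± 0.10 in mESCs (limma adjusted p = 0.0921) and -0.19 ± 0.10 in PILECs (adjusted p = 0.361). The rise was 2.51 (5.69-fold) in wild-type and 1.90 (3.74-fold) in menin-null cells. The other probe set, 1451110_at, rose by 1.94 and 1.41.

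Egln3, or PHD3, is the family member with the strongest response to hypoxia in many cells. Its probe set 1418648_at read 8.33 and 8.21 in wild-type mESCs, 8.86 and 9.03 in menin-null mESCs, 9.42 and 9.29 in wild-type PILECs, and 8.98 and 8.96 in menin-null PILECs. Wild-type mESCs were lowest and wild-type PILECs highest, and the menin-null mESC and PILEC values overlapped between them. Menin-null mESCs were 0.67 ± 0.10 higher than wild type (limma adjusted p = 0.0177), whereas the difference in PILECs, -0.39 ± 0.10, missed the threshold (adjusted p = 0.0788). The effect difference of -1.06 ± 0.14 was called (adjusted p = 0.0166). On differentiation Egln3 rose by 1.09 in wild-type cells (adjusted p = 2.16e-05), while the menin-null difference was 0.02 (adjusted p = 0.847). The second probe set, 1418649_at, disagreed on differentiation: 0.22 in wild-type cells, not called, and a fall of 0.70 in menin-null cells (adjusted p = 0.00885). Nor was it called between genotypes, at 0.32 in mESCs (adjusted p = 0.436) and -0.60 in PILECs (adjusted p = 0.116), or for the effect difference (-0.92, adjusted p = 0.132).

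Around these sensors, 15 HIF subunits and oxygen-sensing genes were listed, and 6 rose and 6 fell in wild-type PILECs relative to mESCs, with 6 and 7 in menin-null cells. Hif1a itself had means of 11.8 and 11.7 in mESCs and 11.5 and 11.3 in PILECs, wild type first. Arnt2, a partner subunit used in neurons, rose by 3.12 in wild type and 3.46 in the absence of menin. Epas1, which encodes the HIF-2 alpha subunit, fell by 2.55 in wild-type cells, and Cited2, an inhibitor of HIF activity, rose by 1.66. Between genotypes 0 of the 15 were called in mESCs by limma, and 1, Epas1, was called in PILECs, 1.37 ± 0.17 higher in menin-null cells (2.59-fold, adjusted p = 0.00665). Its effect difference was 1.52 (adjusted p = 0.0263). Siah1a, a ubiquitin ligase that acts on the EGLN proteins, had an effect difference of -0.69 (adjusted p = 0.0371).

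Pdk1 encodes a mitochondrial kinase that inhibits pyruvate dehydrogenase, and was the 1 gene whose brightest probe set was lower in PILECs. Probe set 1423748_at read 11.58 and 11.54 in wild-type mESCs, 11.78 and 11.84 in menin-null mESCs, 10.58 and 10.56 in wild-type PILECs, and 10.20 and 10.40 in menin-null PILECs. The groups did not overlap, and the order of the genotypes turned between the cell types. The fall was 0.99 in wild-type cells (1.99-fold, limma adjusted p = 3.2e-05) and 1.51 in menin-null cells (2.84-fold, adjusted p = 2.26e-06). The genotype differences, 0.25 in mESCs and -0.27 in PILECs, were not called. Probe set 1423747_a_at fell likewise, by 1.07 and 1.46, but 1435836_at rose by 0.59 in wild-type cells (adjusted p = 0.00115) and was not called in menin-null cells (-0.14). Probe set 1434974_at stayed between 4.51 and 4.82 on every array, with a called fall of 0.27 in menin-null cells, so the direction of Pdk1 depends on the probe set.

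Bnip3 encodes a mitochondrial protein that promotes mitophagy, and has a single probe set, 1422470_at. It read 11.34 and 11.33 in wild-type mESCs, 11.45 and 11.45 in menin-null mESCs, 13.27 and 13.17 in wild-type PILECs, and 12.97 and 13.06 in menin-null PILECs. PILECs were higher without overlap, by 1.89 (3.71-fold) in wild-type and 1.57 (2.96-fold) in menin-null cells (limma adjusted p = 3.89e-07 and 9.68e-07). Menin-null minus wild type was 0.11 ± 0.09 in mESCs and -0.21 ± 0.09 in PILECs, neither of them called.

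Higd1a, a small protein of the inner mitochondrial membrane, has 3 probe sets, all with suffixes for shared probes. The brightest, 1416480_a_at, read 11.27 and 11.29 in wild-type mESCs, 11.35 and 11.37 in menin-null mESCs, 12.19 and 12.06 in wild-type PILECs, and 11.39 and 11.62 in menin-null PILECs. Only wild-type PILECs stood apart, with the other 3 groups between 11.27 and 11.62. The menin-null minus wild-type difference in PILECs was -0.62 ± 0.10 (limma adjusted p = 0.0221). Probe set 1448359_a_at fell by 0.65 there (adjusted p = 0.0355), and 1416481_s_at had a difference of -0.56 without being called (adjusted p = 0.0656). The size of the change on differentiation depended on the probe set: the brightest rose by 0.84 in wild-type cells, the others by 3.19 and 2.83. In menin-null cells these were 0.14, not called, and rises of 2.24 and 1.88. Of the 3, 1448359_a_at had a called effect difference (-0.95, adjusted p = 0.0472).

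Glycolytic genes, a list that holds HIF targets and that the 10 genes leave out, gave 9 higher and 5 lower of 17 in wild-type PILECs relative to mESCs. In menin-null cells the counts were 8 and 6. Slc16a1, a lactate carrier, fell by 2.81 in wild-type cells, whereas the isozymes Eno2 and Aldoc rose by 2.30 and 2.18. Their median was 0.26, where that of the 10 genes was 1.75. Between genotypes 1 was called in each cell type, Hk1 0.57 higher in menin-null mESCs (limma adjusted p = 0.0286) and Eno2 0.81 higher in menin-null PILECs (adjusted p = 0.0355). By limma 0 of the 17 had a called effect difference.

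Ndrg1, a gene of growth arrest and differentiation, has 5 probe sets that moved alike. The brightest, 1420760_s_at, read 7.99 and 7.75 in wild-type mESCs, 8.54 and 8.48 in menin-null mESCs, 9.41 and 9.57 in wild-type PILECs, and 9.77 and 9.55 in menin-null PILECs. Menin-null mESCs lay above wild-type mESCs, and the PILEC genotypes overlapped. Ndrg1 was 0.64 ± 0.12 higher in menin-null mESCs (limma adjusted p = 0.0417), and 1450976_at was 0.51 ± 0.09 higher (adjusted p = 0.0310). The other 3 probe sets were 0.29 to 0.54 higher without being called. In PILECs the 5 differences ran from -0.02 to 0.17, and none was called. On differentiation all 5 rose in each genotype, by 1.02 to 1.62 in wild-type and 0.65 to 1.15 in menin-null cells.

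Ddit4, also known as REDD1, restrains the growth kinase mTORC1 and answers to hypoxia and to other stresses. Its single probe set, 1428306_at, read 10.31 and 10.30 in wild-type mESCs, 10.80 and 10.81 in menin-null mESCs, 12.93 and 12.96 in wild-type PILECs, and 12.65 and 12.73 in menin-null PILECs. The replicates were close and no groups overlapped. Menin-null mESCs were 0.50 ± 0.08 higher (limma adjusted p = 0.0270), while menin-null PILECs differed by -0.25 ± 0.08 (adjusted p = 0.148, not called), and the effect difference of -0.76 ± 0.12 was called (adjusted p = 0.0263). The rise on differentiation was 2.64 (6.23-fold) in wild-type and 1.88 (3.69-fold) in menin-null cells.

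Since Ddit4 is also a target of the stress factor ATF4, a list of 12 genes, Atf4 and 11 of its other targets, was counted, and 9 of the 12, Atf4 among them, fell and 1 rose in wild-type PILECs relative to mESCs. In menin-null cells 9 fell and 3 rose. Trib3 fell by 2.28 and 2.12, wild type first. Between genotypes Atf3 was lower in menin-null mESCs (-0.74, limma adjusted p = 0.0476), and in PILECs Psat1 was lower (-0.66, adjusted p = 0.0169) and Cebpb higher (0.51, adjusted p = 0.0465).

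Ankrd37, a small ankyrin-repeat protein, has 1 probe set, 1436538_at. It read 8.09 and 7.99 in wild-type mESCs, 8.09 and 8.31 in menin-null mESCs, 9.15 and 8.75 in wild-type PILECs, and 8.18 and 8.54 in menin-null PILECs. Replicates differed more here than in the brightest probe sets of the other genes, and menin-null PILECs overlapped menin-null mESCs. It rose by 0.91 in wild-type cells (1.88-fold, limma adjusted p = 0.00147) and was not called in menin-null cells (0.16, adjusted p = 0.433). The menin-null minus wild-type difference in PILECs, -0.59 ± 0.17, was not called (adjusted p = 0.1).

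A broader list of 36 other HIF targets outside glycolysis gave 24 that rose and 6 that fell on differentiation in wild-type cells, with a median of 0.69, and 20 rose and 9 fell in menin-null cells. Vldlr, a lipoprotein receptor, rose by 4.02 in wild type and 3.48 in the absence of menin, Ccng2, a cyclin linked to arrest, by 3.91 and 3.08, and the chemokine receptor Cxcr4 by 3.63 in wild-type cells. Between genotypes 2 of the 36 rose and 2 fell in mESCs. Hmox1, which breaks down heme, was 1.11 higher (limma adjusted p = 0.00685), the collagen-modifying enzyme gene Plod1 was 0.69 higher (adjusted p = 0.0273), and Edn1, which encodes the vasoconstrictor endothelin, was lower (-0.65, adjusted p = 0.0158). Car12, a carbonic anhydrase with all group means under 7, was lower in both cell types, with differences of -0.59 in mESCs (adjusted p = 0.0420) and -0.81 in PILECs (adjusted p = 0.0105), where it was the only 1 called. The median was 0.02 in mESCs and -0.15 in PILECs. Effect differences were called for Hmox1 (-1.27, adjusted p = 0.0161) and, the other way, Edn1 (1.02, adjusted p = 0.0157).

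Of 15 paralogs of the 10 genes, 6 rose and 7 fell on differentiation in each genotype, with a median of -0.39 in wild-type cells. Ndrg4, a neural relative of Ndrg1, rose by 3.13 in each genotype, while Vegfc differed by -2.82 and -3.27, wild type first. In menin-null mESCs Ndrg2 and Ndrg4 were called higher (0.67 and 0.63), as Ndrg1 was. In menin-null PILECs Ndrg4 was higher (0.63), and Ddit4l, the relative of Ddit4 (-0.79, limma adjusted p = 0.0123), and Vegfc (-0.50, adjusted p = 0.0376) were among the 3 called lower. Of the calls that the naming rule took from the lists, all 36 on differentiation, not all of them printed here, held whichever array was left out, whereas each of the 8 between genotypes in mESCs, the 9 in PILECs and the 5 effect differences was lost without at least 1 array. Epas1 in PILECs was lost without either wild-type PILEC array, with limma adjusted p up to 0.0780 and a difference of 1.13 to 1.62.

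**Figure D4:**
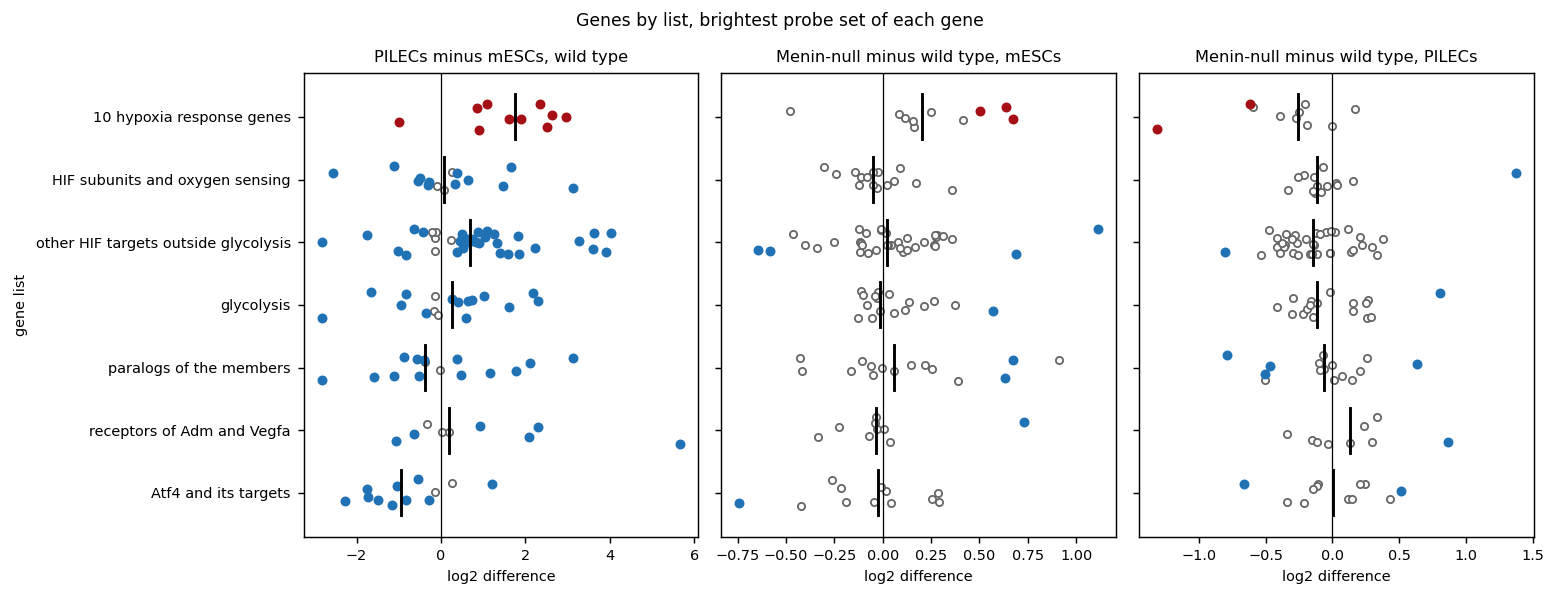
Log2 differences (horizontal axes, 3 comparisons, scaled separately) of the 10 genes and of the genes of 6 related lists (vertical axis), each by its brightest probe set. Filled points are called by limma, open points are not, and vertical bars are medians. The 10 genes have the highest median of the 7 groups in the first panel (1.75) and the second (0.20) and the lowest in the third (-0.26).

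The genes most like the 3 members with the widest range over group means were found by the root mean square difference of centred log2 values over the 8 arrays, among probe sets with a mean of at least 7 in a group. For Adm, with a range of 3.44, they were Crabp2 (0.164), Fabp4 (0.176) and Vcam1 (0.189). For Ddit4 (range 2.64) they were Egln1 (0.0678), Smarce1 (0.0747) and Celsr3 (0.111), and for Egln1 (range 2.51) Rbbp6 (0.0617), Smarce1 (0.0662) and Ddit4. Ddit4 and Egln1 were thus each in the other's list, out of 21407 probe sets compared, which is a description of 8 arrays.

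Markers of several cell types differed between the PILEC genotypes along with Adm and Higd1a. Of 10 striated muscle markers 7 fell in menin-null PILECs, and the mean over the list was 8.78 to 9.06 on wild-type and 7.37 to 7.70 on menin-null arrays. Of 5 adipocyte markers 3 fell, Fabp4 among them, with list means of 7.02 to 7.17 and 6.00 to 6.04. Of 14 parietal and visceral endoderm markers 8 rose and 1 fell, with list means of 8.47 to 8.59 and 9.23 to 9.46. Of 11 mESC markers 5 fell (Dppa5a the most, then Zfp42 at -0.98, Nanog at -0.93, Pou5f1 at -0.81 and Tdgf1 at -0.74), with list means of 8.60 to 8.80 and 8.21 to 8.23. Of the other lists, 3 of 7 glial, 1 of 10 neuronal and 1 of 10 fibroblast markers rose, 3 of 9 proliferation markers fell, and of 8 endothelial and 17 islet markers 0 were called by limma. Adm and Higd1a were not measured in the separate cell types, and the part of cell makeup in their differences was not tested. In mESCs, along with Egln3, Ndrg1 and Ddit4, 2 of 10 neuronal markers were higher in menin-null cells (Elavl3 by 0.96 and Tubb3 by 0.61), as was the mESC marker Tcl1 (by 1.04), while the endothelial marker Tek (-0.77) and the endoderm marker Gata4 (-0.50) were lower. In the muscle, adipocyte, fibroblast, glial, islet and proliferation lists 0 were called there by limma. The part of these differences in the calls of Egln3, Ndrg1 and Ddit4 was not tested. The array's control probe sets for RNA integrity gave beta-actin 3' minus 5' differences of 0.112 to 0.189 on the other 6 arrays and 0.245 to 0.287 on the menin-null PILEC arrays. For Gapdh the PILEC genotypes were alike, at -0.181 and -0.168 on menin-null and -0.181 and -0.180 on wild-type arrays. The mESC arrays ran from -0.110 to -0.014.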

How the data were processed

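Labelled RNA of 8 cultures was hybridised to Affymetrix whole-genome mouse expression arrays, 1 per culture. The values deposited by the authors are log2 signals, 1 per probe set and array, from 3.26 to 15.2. RMA and Partek are named in the submitters' processing notes, and the study's methods name the Microarray Analysis Suite, so how the values were normalised is not settled. Versions of RMA and Partek are not given in the sources used here. Control probe sets (64 of 45101) and those with no symbol (9160) or several (932) were left out. Groups came from the sample titles.

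A mean per group was fitted to all 34945 remaining probe sets with limma 3.58.1 in R 4.3.3 (lmFit and eBayes, 4 residual and 4.06 prior degrees of freedom), with 5 contrasts and Benjamini-Hochberg adjustment over all probe sets. Scripts were tested on simulated data. Replicates are cultures of 1 line, and p-values reflect only their spread. The smallest p of an exact permutation test of 2 against 2 arrays is 0.333, so none was used. The number of arrays limits the precision. Figures used Python 3.11.15, matplotlib 3.10.9 and pandas 2.3.3, and version 1.17.8 of data.table was used in R.

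The members and the 6 pathway and 10 marker lists were chosen with earlier results of these data known. Every member probe set is described. In each pathway list and comparison up to 3 called genes with the largest differences could be named. The alike genes and Men1 followed the same rule, and the cell type markers, Hif1a, Atf4 and Car12 in mESCs were named after their values were seen. Alternatives covered scaling, filters, probe set choice, variance moderation, the study's 2-fold rule, a replicate block, the arrays fitted and each array left out. Promoter windows were RefSeq sequences of GRCm38.p6, matched by symbol.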

Additional observations from a re-analysis of the deposited data

Results flagged for a closer look

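For 3 genes the menin-null effect differed between PILECs and mESCs by the test of the difference itself, limma's contrast of the effect in PILECs minus that in mESCs. Egln3 had a difference of -1.06 (limma adjusted p = 0.0166), Ddit4 of -0.76 (0.0263) and Adm of -0.84 (0.0331) by their brightest probe sets. The second probe set of Egln3, 1418649_at, was not called (-0.92, adjusted p = 0.132). The same limma test called the second probe set of Adm, 1447839_x_at, at -1.21 (0.0448) and 1448359_a_at of Higd1a at -0.95 (0.0472). Of 15 alternative settings, the call of 1447839_x_at was lost in 9 and that of 1448359_a_at in 11. The probe sets of Adm had genotype differences of -0.48 and 0.28 in mESCs, neither called, and of -1.31 and -0.92 in PILECs, both called. No array was far from its group in a way that could be tested, since each group had 2 arrays.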

How the results depend on the processing

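The 5 counts of called genes were recomputed under each alternative. On differentiation they stayed within 1.5 times throughout, at 7 to 10 in wild-type and 7 to 8 in menin-null cells. In mESCs the count of 3 was 5 with limma-trend, where 1797 probe sets were called in place of 770, 1 without variance moderation (98 probe sets), 1 with the replicate block (478), 0 by the 2-fold rule and 0 by limma on only the 4 arrays compared (21), with 6 at an unadjusted p under 0.05 in both, and 0 to 3 when arrays were left out. In PILECs the count of 2 was 7 with limma-trend (3156 probe sets against 1353), 1 without variance moderation (275), 1 without shared-probe suffixes (831), 1 by the 2-fold rule and 1 to 3 with arrays left out. For the effect difference the count of 3 was 7 with limma-trend (1805 against 560), 0 without variance moderation (42, with 7 genes at an unadjusted p under 0.05), 1 with the replicate block (277), 1 by the 2-fold rule and 0 to 3 with arrays left out. The setting without shared-probe suffixes left 9 genes, because all 3 probe sets of Higd1a carry such a suffix. Its call in PILECs was therefore not tested in that setting. The filter on low values called 2122 probe sets in PILECs. In mESCs that filter and the setting with 1 probe set per gene each gave a count of 4. Under both of them and with limma-trend, 1 of the called genes, Adm, was lower in menin-null mESCs. The share of all genes at an unadjusted p under 0.05 was not counted in any setting. Why the variance settings moved the counts was not tested. By its brightest probe set Adm in PILECs was called under every alternative, with limma adjusted p from 5.06e-05 to 0.0331. Its second probe set, 1447839_x_at, lost that call in 8 of 16 settings, with a difference of -1.08 to -0.76 over them.

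Equal replicate numbers mark no shared batch in the labels. Of 6 pairs of groups 1 had a correlation of replicate differences over 0.1 (-0.278 to 0.222 over the pairs). Because the numbering within a group may be arbitrary, these values cannot decide whether arrays shared a batch. The replicate block is therefore an alternative alone. Of 1335 recomputed single differences, 1185 kept direction and call, 126 lost the call, 19 gained it and 5 changed sign, none of them called. Those were Vegfa between genotypes in PILECs (0.068 after quantile normalisation, and -0.092 to 0.086 with arrays left out, against -0.003), and on menin-null differentiation Egln3 (-0.059 to 0.11 with arrays left out) and Ankrd37 (-0.019 to 0.34). Of 1014 recomputed differences of named genes of the lists, 859 kept their call, 155 lost it and 0 changed sign. Signal over background was not tested, since no detection calls were used.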
